A study of Mus musculus with 6 samples.

Results

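The genes described here are the collagen chains and the enzymes and helper proteins that mature them, as measured in whole uterine horn of C57BL6J mice with and without forced expression of SF1. A gene belonged to the set when its symbol had the form of a collagen chain or when it was one of 14 named processing genes (Pcolce, Pcolce2, Lox, Loxl1 to Loxl4, P4ha1 to P4ha3, Plod1 to Plod3 and Serpinh1). Of the 59 such genes considered, 55 were measured, 42 chains and 13 processing genes, among 18193 genes in all. Where several probe sets carried a gene's symbol and no other, the brightest of them by mean intensity stood for the gene. Col6a6, Col21a1, Col28a1 and Loxl2 had no such probe set and were not analysed here. The transgenic animals, called SF1 below, carried the SF-1 transgene allele SF1LsL/+ together with a Cre allele at the progesterone receptor locus (Pgrcre/+ SF1LsL/+), so that Cre was made where Pgr is expressed. The controls, labelled as a wild-type control, carried SF1LsL/+ without Cre, and both groups therefore held the transgene allele. Each group had 3 arrays, each of RNA pooled from 2 uteri, and horns were taken 2 weeks after a surgery that the labels do not name. The labels do not state the age of the mice. In the breeding described there, controls were littermates. Because the Cre allele was present in the SF1 group alone, Pgr dose, Cre and SF1 cannot be told apart.

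Collagens are extracellular proteins built from chains that wind around each other in a helix. Fibrillar chains form the tension-bearing fibres of stroma and muscle wall, collagen IV forms the mesh of basement membranes, and smaller groups decorate fibrils, anchor epithelium or span the cell membrane. Newly made chains are hydroxylated on proline by the P4ha enzymes and on lysine by the Plod enzymes. They are folded with the help of the chaperone Serpinh1. Outside the cell they lose their end propeptides, a step that Pcolce assists, and are crosslinked by Lox enzymes. In the uterus this matrix is remodelled with the cycle and pregnancy under ovarian steroids.

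The sequences upstream of annotated starts of 5 of the 11 members whose levels differed between the groups are shown first, because the SF1 protein acts by binding DNA. No stated rule chose these 5, and they do not stand for all 11. Windows of the called members Col4a4, Col23a1, Col25a1 and Col27a1 are not shown. They are from RefSeq's promoter table (GRCm38.p6), read 5′ to 3′ on the strand of the gene, and cut to the part that lies outside every annotated gene. Capitals mark AAGGTCA, the nuclear receptor element that SF1 and its relatives can bind, and GGGCGG, the GC box of Sp1 family factors, on either strand. The Pcolce stretch holds neither, and the GC box of its full window lies in the bases left out because an annotated gene covers them.
Pcolce (chr5:137611523-137611654, minus strand): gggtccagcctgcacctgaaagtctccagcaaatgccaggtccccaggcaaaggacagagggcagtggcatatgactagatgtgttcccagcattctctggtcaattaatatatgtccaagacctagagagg
Pcolce2 (chr9:95637378-95637627, plus strand): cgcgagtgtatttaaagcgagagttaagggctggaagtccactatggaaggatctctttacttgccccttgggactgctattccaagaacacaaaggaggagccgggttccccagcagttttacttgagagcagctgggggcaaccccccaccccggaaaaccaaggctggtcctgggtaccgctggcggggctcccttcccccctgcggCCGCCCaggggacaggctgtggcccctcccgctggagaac
Col18a1 (chr10:77166531-77166780, minus strand): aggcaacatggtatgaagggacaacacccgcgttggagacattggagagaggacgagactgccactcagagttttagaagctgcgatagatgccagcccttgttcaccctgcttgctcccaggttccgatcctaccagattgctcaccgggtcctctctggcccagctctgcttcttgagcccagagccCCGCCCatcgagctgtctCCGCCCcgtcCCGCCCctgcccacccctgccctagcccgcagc
Col7a1 (chr9:108953336-108953585, plus strand): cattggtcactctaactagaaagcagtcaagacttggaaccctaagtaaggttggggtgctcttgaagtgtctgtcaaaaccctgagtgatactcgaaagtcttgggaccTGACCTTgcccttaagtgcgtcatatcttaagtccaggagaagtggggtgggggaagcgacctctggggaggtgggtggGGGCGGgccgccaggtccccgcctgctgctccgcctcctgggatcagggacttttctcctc
P4ha2 (chr11:54100674-54100923, plus strand): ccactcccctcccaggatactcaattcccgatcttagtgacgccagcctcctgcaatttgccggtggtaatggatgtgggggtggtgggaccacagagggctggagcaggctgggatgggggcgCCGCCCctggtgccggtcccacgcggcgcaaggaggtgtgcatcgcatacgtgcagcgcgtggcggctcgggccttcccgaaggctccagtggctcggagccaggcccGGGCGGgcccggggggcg

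The table held 45 promoter windows for 42 of the 55 members, each window running from 250 bases before a start to 50 after it. AAGGTCA occurred in 5 of these 45 windows (11.1%), against 4.72% of all 32851 windows. The 5 windows belonged to Col7a1 and Col23a1, which were lower in SF1, and to Col9a1, Col11a1 and Col24a1, which were not called. The shorter AGGTCA, which every AAGGTCA contains, occurred in 17.8% of member windows and in 16.3% of all windows. GGGCGG occurred in 30 member windows (66.7%), against 35.7% of all windows. It was in a window of 8 called members (Pcolce, Pcolce2, Col7a1, Col18a1, Col23a1, Col25a1, Col27a1 and P4ha2), and of chains that were not called such as Col1a2, Col4a1 and Col4a2. Of the other called members, Col4a4 had a window without it, and Col4a3 and Lox had no window. CCAAT occurred in 31.1% of member windows and in 37.4% of all windows. None of these shares of windows was tested against that of all windows, and windows were not matched for base composition. A match of letters describes a window and shows no binding.

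Each probe set had 1 linear intensity value per array. The median intensity of an array was 149.9 at the lowest and 162.2 at the highest, and an array's mean correlation with its own group lay between 0.9888 and 0.9925, against 0.9672 to 0.9761 with the other group. Pgr averaged 1893 ± 158 intensity units in SF1 and 4797 ± 89.0 in control (SD, n = 3 each; log2 fold change -1.34, limma adjusted p = 3.2e-05). The probe set of Nr5a1, the gene of SF1, averaged 151.3 ± 0.131 in SF1 and 151.7 ± 17.4 in control (adjusted p = 0.992), and whether it lies within the transgene is not known here. The 3′ over 5′ beta-actin signal, a sign of RNA quality, was 2.19 ± 0.123 in SF1 and 2.51 ± 0.107 in control (SD, n = 3 each; two-sided exact permutation p = 0.1, and no smaller p is possible with 3 arrays against 3). The Gapdh ratio was 1.54 ± 0.104 in SF1 and 1.62 ± 0.0877 in control, with arrays that overlapped (exact permutation p = 0.3). Summed levels of 9 endometrial stroma markers lay between 18298 and 19106 intensity units in SF1 and between 26937 and 27291 in control, with 0 markers higher and 8 lower. Of 8 endothelial markers 7 were lower, with sums of 3755 to 4134 in SF1 and 5777 to 5944 in control. Of 5 pericyte markers 3 were lower, with sums of 5117 to 5473 in SF1 and 8032 to 8511 in control. Of 8 epithelial markers 5 were higher and 1 lower, with sums of 18986 to 21466 in SF1 and 15802 to 16928 in control. Of 8 macrophage markers 7 were higher, with sums of 8307 to 10426 in SF1 and 4057 to 6324 in control. The 8 smooth muscle, 7 cartilage and 5 mesothelial markers were not called. Smooth muscle sums overlapped, at 31183 to 33547 in SF1 and 28744 to 31548 in control. Cartilage sums were 464 to 473 in SF1 and 497 to 528 in control. Snorc alone averaged 189 in SF1 and 238 in control, while the median log2 fold change of the 7 cartilage markers was 0.06. Mesothelial sums were 3939 to 4159 in SF1 and 3375 to 3738 in control, of which Wt1 alone averaged 2689 in SF1 and 2412 in control. Of 5 fat cell markers 1 was lower, with sums of 2288 to 9953 in SF1 and 8921 to 14188 in control. Of 6 skeletal muscle markers 1 was lower, with sums of 570 to 619 in SF1 and 672 to 789 in control. That marker, Acta1, averaged 227 in SF1 and 328 in control. The lowest deposited value was 1, so no marker could read 0. Of the 7 cartilage markers, 1 was at or above the median log2 intensity of all tested probe sets, as was 1 of the 6 skeletal muscle markers. Whether the dimmer markers were above background is not known. The part of these cell type markers and of RNA quality in the results below was not tested.

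Most collagen genes did not differ between the groups beyond the test's threshold. Of the 55 members, 3 were higher in SF1 (5.45%), 8 were lower (14.5%) and 44 were not called, at an adjusted p under 0.05 in a limma fit of log2(intensity + 16) over all 45037 tested probe sets. In the same fit 8.45% of all genes were higher and 8.11% lower. The median log2 fold change was -0.07 over the members and -0.05 over all genes. The groups did not overlap for 16 members (29.1%), against 39.9% of all genes. SF1 was the higher group for 3 of these members (5.45%, against 16.3% of all genes) and the lower group for 13 (23.6%, against 23.7% of all genes). None of these shares was tested against that of all genes. A gene that missed the threshold is not thereby shown to be alike in both groups. In whole tissue, fewer cells of a type and less RNA per cell cannot be told apart.

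**Figure D1:**
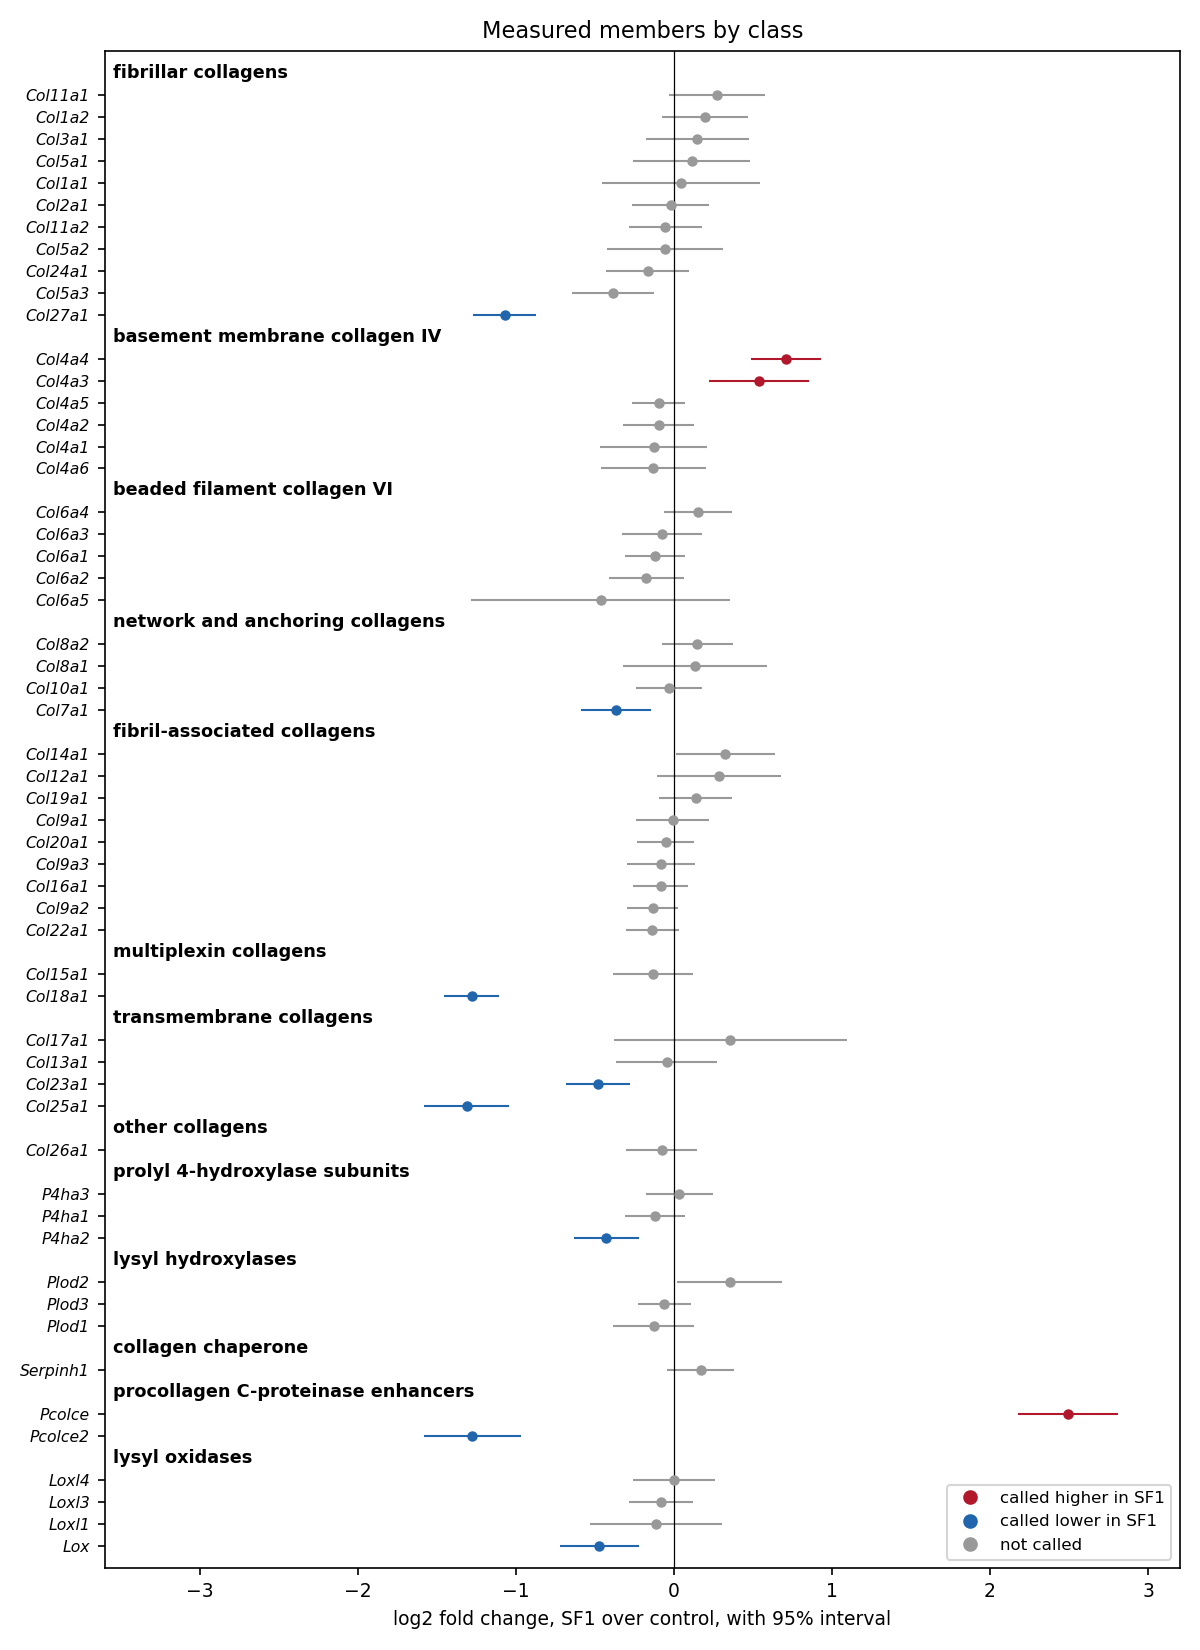
Log2 fold change, SF1 over control, on the log2(intensity + 16) scale for the 55 measured members, grouped by class, with points for the limma estimate and bars for its 95% interval. Pcolce stands alone at the right at 2.49, while Col25a1, Col18a1, Pcolce2 and Col27a1 lie left of -1 and most fibrillar and collagen VI chains straddle 0.

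The procollagen C-proteinase enhancers moved in opposite directions. Pcolce encodes a secreted protein that speeds the removal of the C-propeptide from fibrillar procollagens, the step that lets chains assemble into fibrils. It read 3212, 3029 and 2238 intensity units in SF1 replicates 1 to 3, against 482, 441 and 528 in control. Every SF1 array was far above every control array, and the mean was 5.84 times that of control (log2 fold change 2.49 ± 0.14, SE; limma adjusted p = 1.8e-05). The other Pcolce probe set gave 2108, 2133 and 1541 in SF1, against 402.2, 402.3 and 455.5 in control (log2 fold change 2.14). Both probe sets read lowest within SF1 in replicate 3. Pcolce2, a gene related to Pcolce, read 179, 118 and 131 in SF1, against 380.3, 371.5 and 338.7 in control. Its groups did not overlap, and SF1 stood at 39.3% of the control mean (log2 fold change -1.28 ± 0.14, SE; adjusted p = 0.000451). Pcolce2 had a single probe set. Both calls held when any 1 array was left out.

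**Figure D2:**
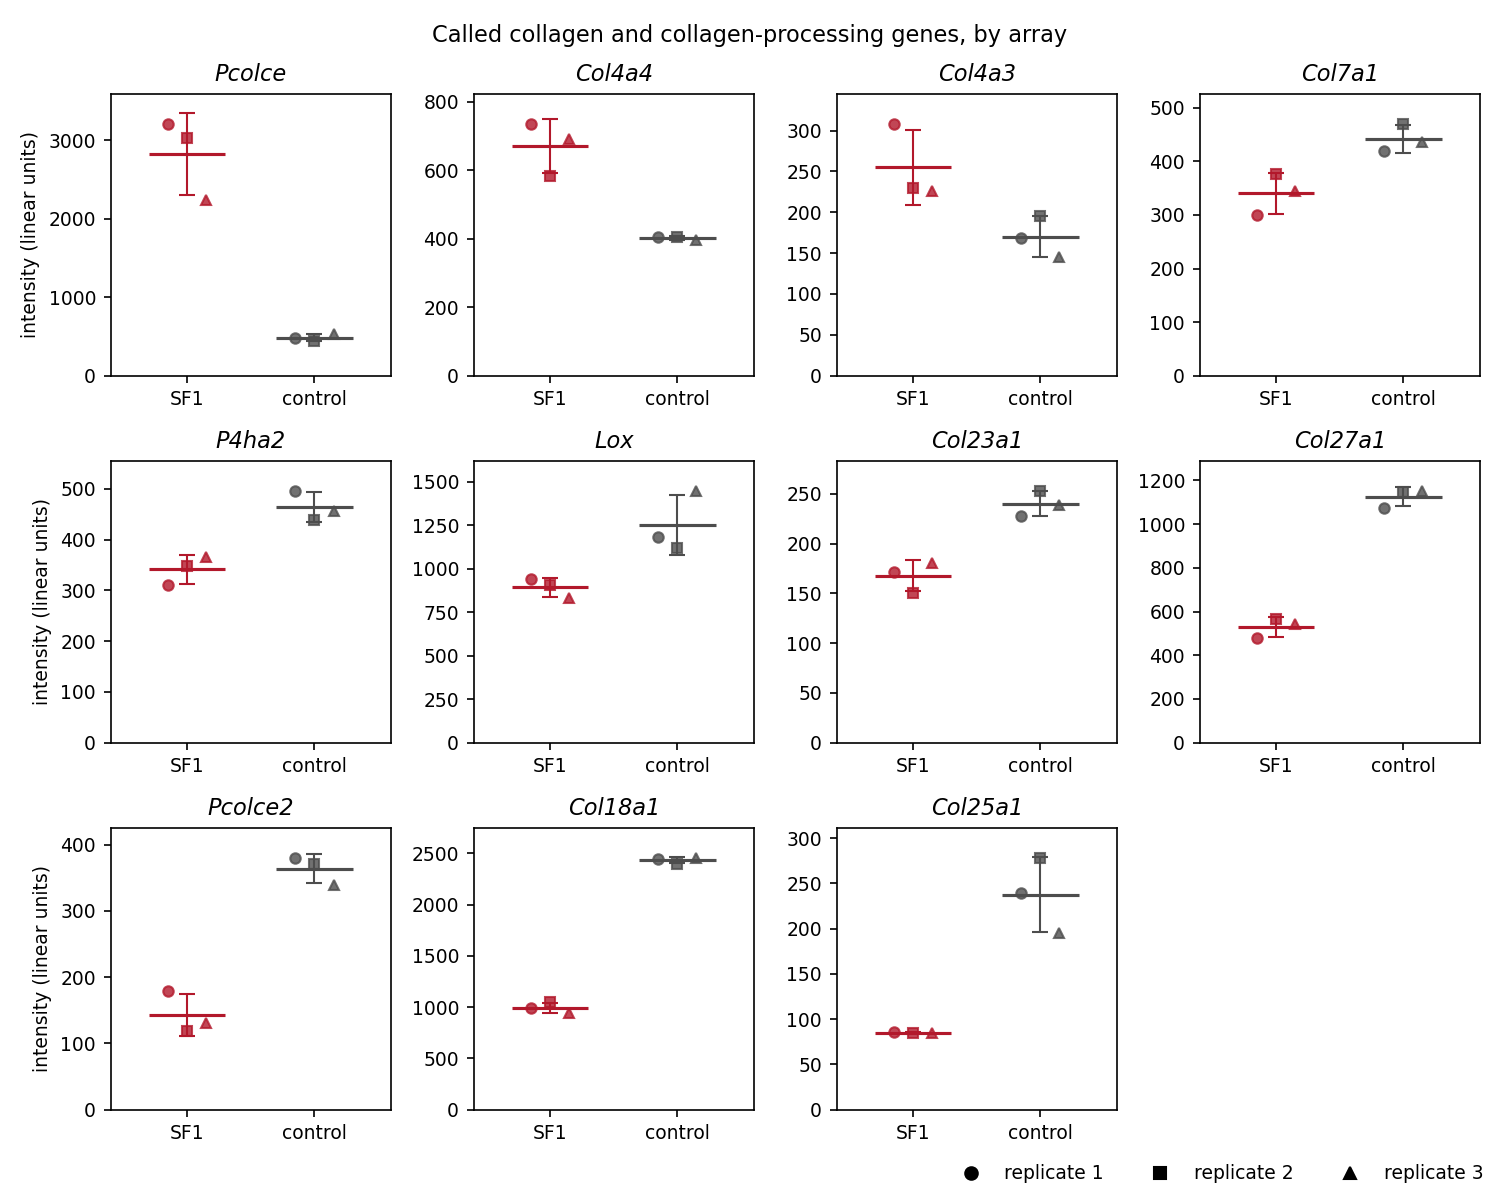
Intensity in linear units of the 11 members that passed the test, with 1 symbol for each array, a line for the group mean and bars for the SD (n = 3 each), SF1 left of control in each panel and the axis starting at 0. In all 11 panels the SF1 arrays lie on 1 side of the control arrays, above them for Pcolce, Col4a4 and Col4a3 and below them for the other 8.

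The main fibrillar chains were not called. Col1a1, a chain of type I collagen, read 1204, 1782 and 1006 intensity units in SF1, against 1301, 983 and 1530 in control. Its groups overlapped, and its log2 fold change was 0.05 with a 95% interval from -0.45 to 0.55 (adjusted p = 0.905). Col1a2, the other chain of type I, read 9449, 10663 and 8950 in SF1, against 8724, 7193 and 9505 in control (0.20, interval -0.07 to 0.47). Col3a1, the chain of the finer type III fibrils of distensible tissue, read 10806, 12434 and 9209 in SF1, against 10142, 8078 and 11068 in control (0.15, interval -0.18 to 0.48). The groups overlapped for both genes. Another Col1a2 probe set went the other way without a call, at 1050, 953 and 1070 in SF1 against 1228, 1205 and 1349 in control (-0.30, adjusted p = 0.0527), and the mean of the gene's probe sets gave 0.035. Col5a1 (0.11) and Col5a2 (-0.06), chains of type V collagen that start fibrils, were not called on the probe sets that represent them. A second Col5a2 probe set was lower in SF1, at 731, 885 and 716 against 1077, 994 and 1059 in control (log2 fold change -0.42, adjusted p = 0.0238). The minor type V chain Col5a3 read 161, 157 and 118 in SF1, against 190.0, 187.9 and 200.4 in control. Its groups did not overlap, but the log2 fold change of -0.38 missed the threshold (adjusted p = 0.0584). It passed the threshold with a pseudocount of 64, the brightness filter, trend and robust variance or array weights (adjusted p between 0.0367 and 0.0461), and missed it in every other alternative run (adjusted p between 0.0666 and 0.277). The other Col5a3 probe set was at 0.03 (adjusted p = 0.912), and with the mean of both the log2 fold change was -0.18.

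Within each group the same arrays tended to read high or low for the fibrillar chains. Of the 7 fibrillar chains at or above the median log2 intensity of all tested probe sets, 6 read highest among the SF1 arrays in replicate 2, and 6 read lowest in replicate 3. In control all 7 read highest in replicate 3, and 6 read lowest in replicate 2. Col27a1 was the exception in SF1 replicate 3 and control replicate 2. The chains share the arrays and their scaling, so this is a description of 6 arrays.

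**Figure D3:**
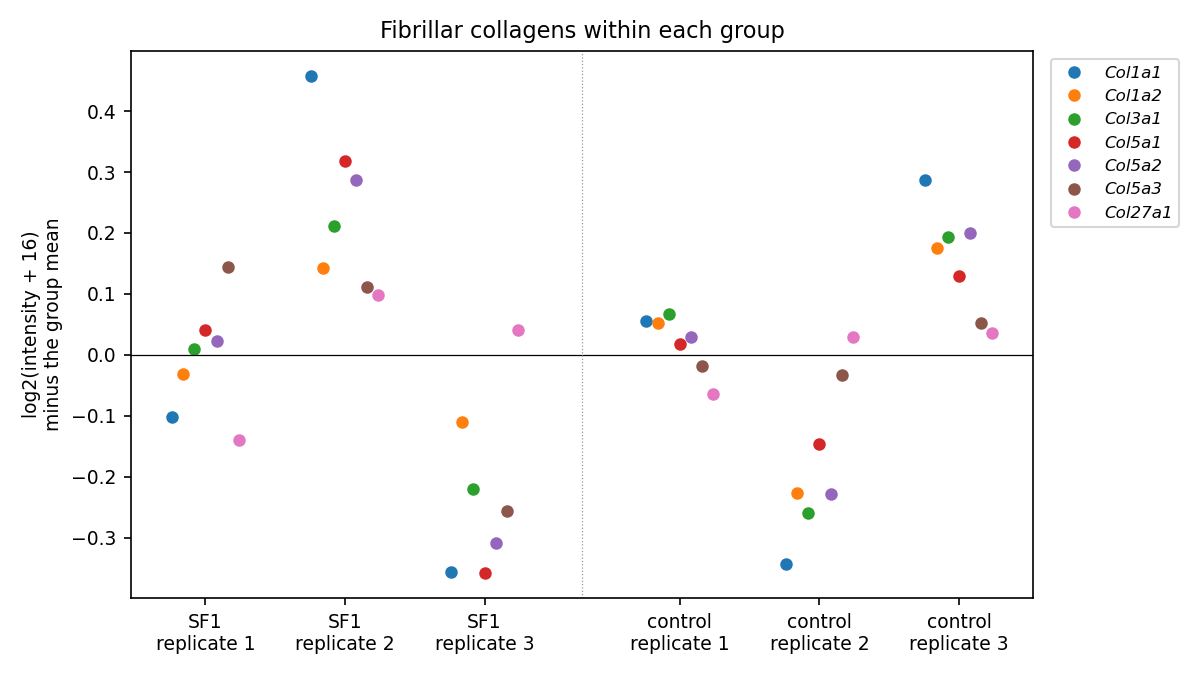
Deviation of each array from the mean of its own group, in log2(intensity + 16), for the 7 fibrillar chains at or above the median log2 intensity of all tested probe sets, with SF1 arrays left of control arrays and 1 colour for each gene. SF1 replicate 2 and control replicate 3 lie above 0 for all 7 genes, and Col1a1 spans the widest range.

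Col27a1 was the fibrillar chain that fell. It encodes a fibrillar collagen known best from cartilage. It read 477, 565 and 543 intensity units in SF1, against 1075, 1148 and 1153 in control. The groups were well apart, with SF1 at 47.0% of the control mean (log2 fold change -1.07 ± 0.09, SE; adjusted p = 0.000116). Its second probe set was also lower, at 249.2, 237.6 and 258.0 in SF1, against 461, 333 and 454 in control (-0.70, adjusted p = 0.0072). The remaining fibrillar chains Col2a1, Col11a1, Col11a2 and Col24a1, of which the first 3 belong to cartilage fibrils, lay below the median log2 intensity of all tested probe sets and had log2 fold changes between -0.17 and 0.27 with no call.

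Among the chains of collagen IV, the pair Col4a3 and Col4a4 was higher in SF1. These chains join with Col4a5 in a network known from the filtering membrane of the kidney and a few other epithelia, whereas Col4a1 and Col4a2 make the collagen IV of nearly all basement membranes. Col4a4 read 736, 583 and 691 intensity units in SF1, against 406.1, 404.7 and 396.4 in control. The groups did not overlap, and the mean was 1.66 times that of control (log2 fold change 0.71 ± 0.10, SE; adjusted p = 0.00189). A second Col4a4 probe set was also higher, at 470, 387 and 509 in SF1, against 295, 360 and 291 in control (0.51, adjusted p = 0.0284), and the remaining, dim one was not called (0.23). Col4a3 read 308, 230 and 226 in SF1, against 169, 195 and 145 in control (0.54 ± 0.14, SE; adjusted p = 0.0366). Its groups did not overlap, but leaving out single arrays ended the call in 5 of 6 cases (adjusted p up to 0.102), and its other probe set was at 0.05 and not called. With the mean of its probe sets the log2 fold change was 0.29.

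The other 4 collagen IV chains were not called. Col4a1 read 2141, 2093 and 1423 intensity units in SF1, against 1965, 2042 and 2077 in control (log2 fold change -0.13, interval -0.47 to 0.21). The second Col4a1 probe set went the other way without a call (0.14, adjusted p = 0.536). Col4a2 read 2164, 2306 and 1838 in SF1, against 2280, 2136 and 2304 in control (-0.10, interval -0.32 to 0.13). Both genes read lowest in SF1 replicate 3, and their groups overlapped. Col4a5 averaged 1721 ± 45.4 in SF1 and 1840 ± 45.7 in control (SD, n = 3 each), a small difference with groups that did not overlap (-0.10, adjusted p = 0.407). Col4a6, partner of Col4a5 in smooth muscle basement membrane, was at -0.13 and not called, while its second probe set was lower in SF1 (-0.35, adjusted p = 0.0282). In the RefSeq gene table for GRCm38.p6 the genes lie next to each other as the pairs Col4a1 with Col4a2, Col4a3 with Col4a4, and Col4a5 with Col4a6. The difference in fold change between these pairs was not tested.

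**Figure D4:**
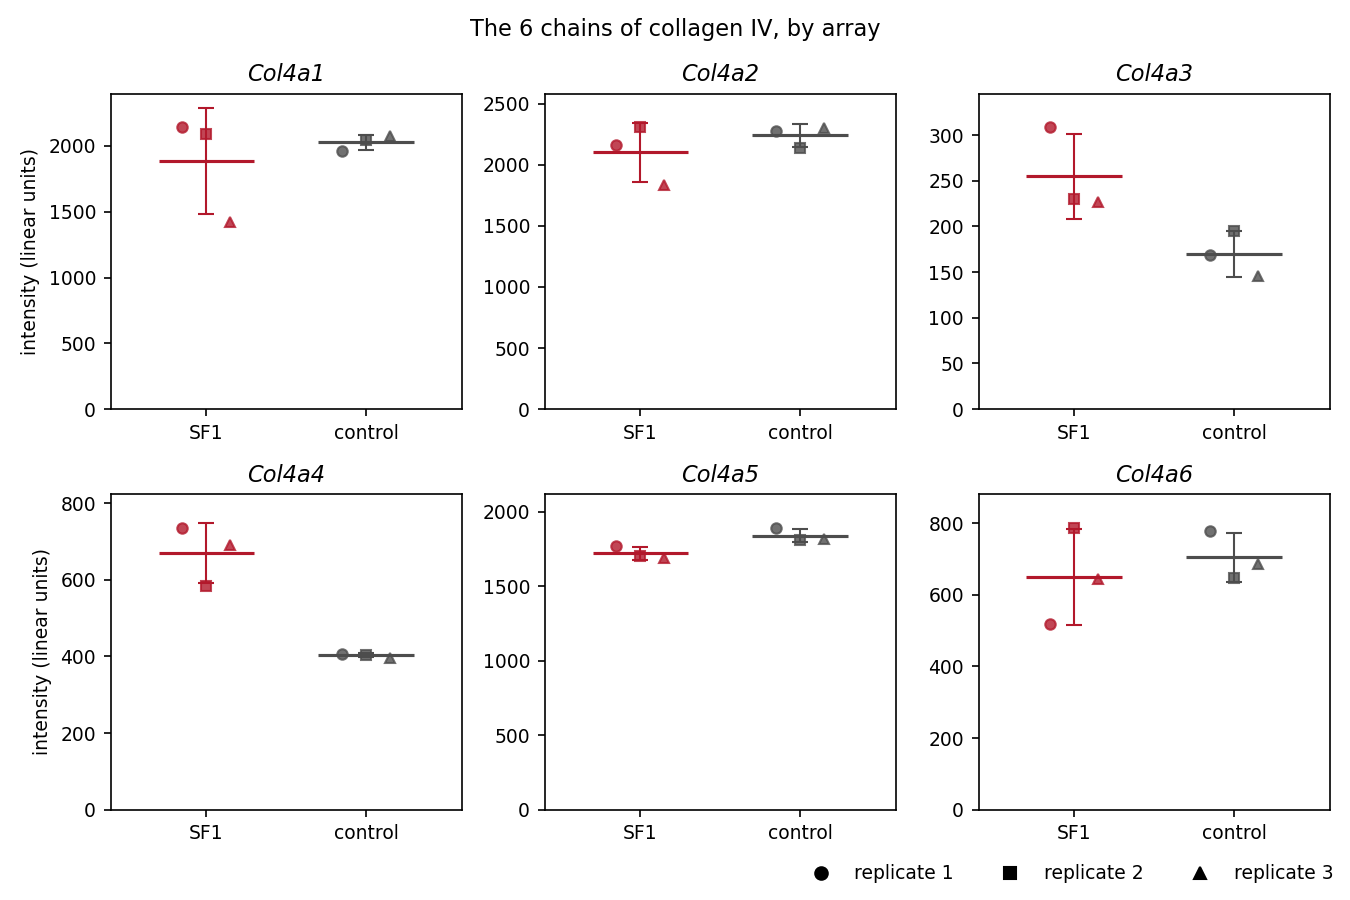
Intensity in linear units of the 6 collagen IV chains, each read from its brightest probe set, with 1 symbol for each array, a line for the group mean and bars for the SD (n = 3 each), SF1 left of control and the axis starting at 0. Col4a3 and Col4a4 lie higher in all 3 SF1 arrays than in any control array, and SF1 replicate 3 is the lowest array for Col4a1 and Col4a2.

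Col18a1 showed the fall with the smallest adjusted p among the members. It encodes a proteoglycan-type collagen of epithelial and vascular basement membranes, from which endostatin, an inhibitor of vessel growth, is cut. It read 992, 1046 and 946 intensity units in SF1, against 2446, 2401 and 2458 in control. The groups were far apart, with SF1 at 40.9% of the control mean (log2 fold change -1.28 ± 0.08, SE; adjusted p = 2.3e-05). The second probe set gave 895, 1023 and 900 in SF1, against 2096, 1801 and 2079 in control (-1.07). Col15a1, the other multiplexin chain, which joins basement membrane to the fibrils below it, averaged 598 ± 91.0 in SF1 and 653 ± 28.7 in control (SD, n = 3 each) and was not called (-0.13). The endothelial and pericyte marker sums given above were also lower in SF1, whereas the epithelial marker sums were higher. The part of these cell types in the fall of Col18a1 was not tested.

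Transmembrane collagens, which sit in the cell membrane and can be shed, were split. Col25a1, known best from neurons, read 86.1, 84.3 and 85.2 intensity units in SF1, against 239.9, 278.3 and 194.7 in control. This probe set lay below the median log2 intensity of all tested probe sets. Whether its SF1 level was above background is not known, so the size of the fold is uncertain. The 3 SF1 arrays were nearly equal while the control arrays spread widely, and the mean stood at 35.9% of control (log2 fold change -1.31 ± 0.12, SE; adjusted p = 0.000189). Its other probe set did not show the fall, at 140.4, 136.5 and 140.8 in SF1 against 155.3, 124.8 and 164.6 in control (-0.07, adjusted p = 0.666). With the mean of both probe sets the log2 fold change was -0.69. Col23a1 read 172, 151 and 181 in SF1, against 228, 253 and 239 in control (-0.48 ± 0.09, SE; adjusted p = 0.0087), and 1 of its other 2 probe sets was also called lower (-0.37, adjusted p = 0.0336). The groups of Col23a1 did not overlap. Col13a1 (-0.04) and Col17a1 (0.36) were not called. Col17a1, part of the junctions that hold epithelium to its membrane, read 115 in SF1 replicate 3 but between 33.7 and 46.9 in the other 5 arrays.

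Col7a1 forms the anchoring fibrils between epithelial basement membrane and stroma. It read 300, 376 and 344 intensity units in SF1, against 419, 470 and 436 in control. The groups did not overlap (log2 fold change -0.37 ± 0.10, SE; adjusted p = 0.0413), but 5 of 6 single-array omissions ended the call (adjusted p up to 0.126), as did quantile normalization, median centring or a pseudocount of 1. The other network chains Col8a1 (0.13), Col8a2 (0.15) and Col10a1 (-0.03) were not called. Col8a1, a chain of vessel and membrane meshes, read 314, 306 and 169 in SF1, against 238, 225 and 228 in control, and without SF1 replicate 3 it passed the threshold at 0.40 (adjusted p = 0.0278). With all arrays its other 2 probe sets were not called (0.08, adjusted p = 0.773, and -0.11, adjusted p = 0.533).

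Collagen VI and the fibril-associated chains held no call. Collagen VI forms beaded filaments around cells. Col6a1 averaged 3178 ± 116 intensity units in SF1 and 3455 ± 242 in control (SD, n = 3 each; log2 fold change -0.12, interval -0.31 to 0.07), with groups that did not overlap. Col6a2 (-0.17, interval -0.41 to 0.06), Col6a3 (-0.07, interval -0.33 to 0.18) and Col6a4 (0.15, interval -0.06 to 0.37) were not called either. Col6a5 read between 19.6 and 28.1 in 5 arrays and 94.4 in control replicate 3, so its log2 fold change of -0.46 (adjusted p = 0.419) rested on that array. Of the 9 fibril-associated chains measured, Col14a1 read 977, 1164 and 801 in SF1, against 866, 730 and 725 in control (0.32, adjusted p = 0.155). Its groups overlapped, and so did those of Col12a1 (0.29), which like Col14a1 coats fibrils. With the mean of each gene's probe sets the values were 0.098 for Col14a1 and 0.053 for Col12a1. The other 7 chains of the class lay between -0.14 and 0.14. Col26a1 was at -0.08 and not called.

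Of the enzymes that act inside the cell, P4ha2 fell. It encodes a catalytic subunit of collagen prolyl 4-hydroxylase. It read 310, 348 and 365 intensity units in SF1, against 496, 439 and 457 in control. The groups did not overlap, with SF1 at 73.6% of the control mean (log2 fold change -0.43 ± 0.09, SE; adjusted p = 0.0159). The call was lost without SF1 replicate 1 or control replicate 1 (highest adjusted p = 0.0628). The alternative subunits P4ha1 (-0.12) and P4ha3 (0.04) were not called. Plod2, the lysyl hydroxylase of the collagen ends that Lox crosslinks, read 696, 656 and 544 in SF1, against 575, 396 and 514 in control (0.35, adjusted p = 0.144), and its groups overlapped. Plod1 (-0.13), Plod3 (-0.06) and the chaperone Serpinh1 (0.17, with 4247 ± 371 in SF1 and 3767 ± 228 in control, SD, n = 3 each) were not called either.

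Lox, the enzyme that starts the crosslinking of collagen and elastin, was lower in SF1. It read 941, 906 and 833 intensity units in SF1, against 1185, 1119 and 1448 in control. The groups did not overlap (log2 fold change -0.47 ± 0.11, SE; adjusted p = 0.0232). For this probe set the call ended in 5 of 6 single-array omissions (adjusted p up to 0.0789). A second Lox probe set read 305, 307 and 309 in SF1, against 416, 436 and 464 in control, with little spread in SF1 (-0.49, adjusted p = 0.00349), and the remaining, dim one was not called (-0.09). The relatives Loxl1 (-0.11), Loxl3 (-0.08) and Loxl4 (0.00) were not called. A pair of probe sets annotated to Loxl2 together with Gm21451 had no call (0.25, adjusted p = 0.205, and 0.38, adjusted p = 0.291) and was not counted among the members.

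Calls on the representing probe set were compared with the members' other probe sets. Of 104 probe sets of the 55 members, 19 were called (18.3%), against 14% of all tested probe sets. Among the 11 called members, 8 had another probe set, and for 6 of these (Col4a4, Col18a1, Col23a1, Col27a1, Pcolce and Lox) another was called in the same direction. For 0 of them was another called in the opposite direction. Members not called but with another probe set called numbered 2, Col5a2 and Col4a6, both lower.

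Other genes of collagen assembly were read from 5 lists of 76 genes, of which 71 were measured. Over these, 5 were higher (7.04%) and 14 lower (19.7%) in SF1, with a median log2 fold change of -0.05. Over all genes 8.45% were higher and 8.11% lower. No share of these lists was tested against that of all genes. Of 19 other enzymes and chaperones of procollagen, 1 was higher (5.26%) and 0 were lower. That gene was Fkbp7, an isomerase of the endoplasmic reticulum (log2 fold change 0.28, adjusted p = 0.0338). Bmp1, the protease that Pcolce assists, read 944, 986 and 895 intensity units in SF1, against 797, 773 and 817 in control. Its groups did not overlap but it was not called (0.24, adjusted p = 0.0746). Bmp1 was named after its values were seen.

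Of 19 regulators of fibril assembly, 0 were higher and 7 lower in SF1 (36.8%, median -0.22). Fn1, the fibronectin on which collagen fibrils form, fell most, at 1278, 1710 and 1126 intensity units in SF1, against 3734, 3088 and 3574 in control. The groups were far apart (log2 fold change -1.34, adjusted p = 0.000599). Tnxb, a glycoprotein that binds fibrils, followed (-0.68, adjusted p = 0.00564). The other 5 that fell were the decorin gene Dcn (-0.37), Dpt (-0.64), Abi3bp (-0.54), Tgfbi (-0.39) and Kera (-0.35). The other 12 of the list were not called, and 13 of the 19 had a negative log2 fold change. The stroma marker sums given above were also lower in SF1, and their part in these falls was not tested.

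Of 15 measured basement membrane partners of collagen IV, 2 were higher (13.3%) and 5 lower (33.3%) in SF1. Lama1, the laminin chain of embryonic and some adult epithelial membranes, read 270, 212 and 194 intensity units in SF1, against 32.4, 42.8 and 33.9 in control. Every SF1 array was far above the control arrays (log2 fold change 2.20, adjusted p = 2.2e-05). The Lama1 probe set lay below the median log2 intensity of all tested probe sets, and whether its control level was above background is not known, so the size of the fold is uncertain. Lamb1, a widely used laminin chain, was also higher (0.40), while Lama3, of epithelial anchoring laminin (-0.97), and Nid2, which links laminin and collagen IV (-0.65), fell most. Of 9 collagen receptors, Ddr1 of epithelium was higher (0.46, adjusted p = 0.0081) and Itga10 was lower (-0.40, adjusted p = 0.0091). Of 9 collagen-degrading proteases, Fap was higher (0.88) and Mmp2, a gelatinase, was lower (-0.85, adjusted p = 0.000803). Mmp8, a neutrophil collagenase, was not called and read 606 in SF1 replicate 2 but between 29.3 and 34.6 in the other 5 arrays.

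**Figure D5:**
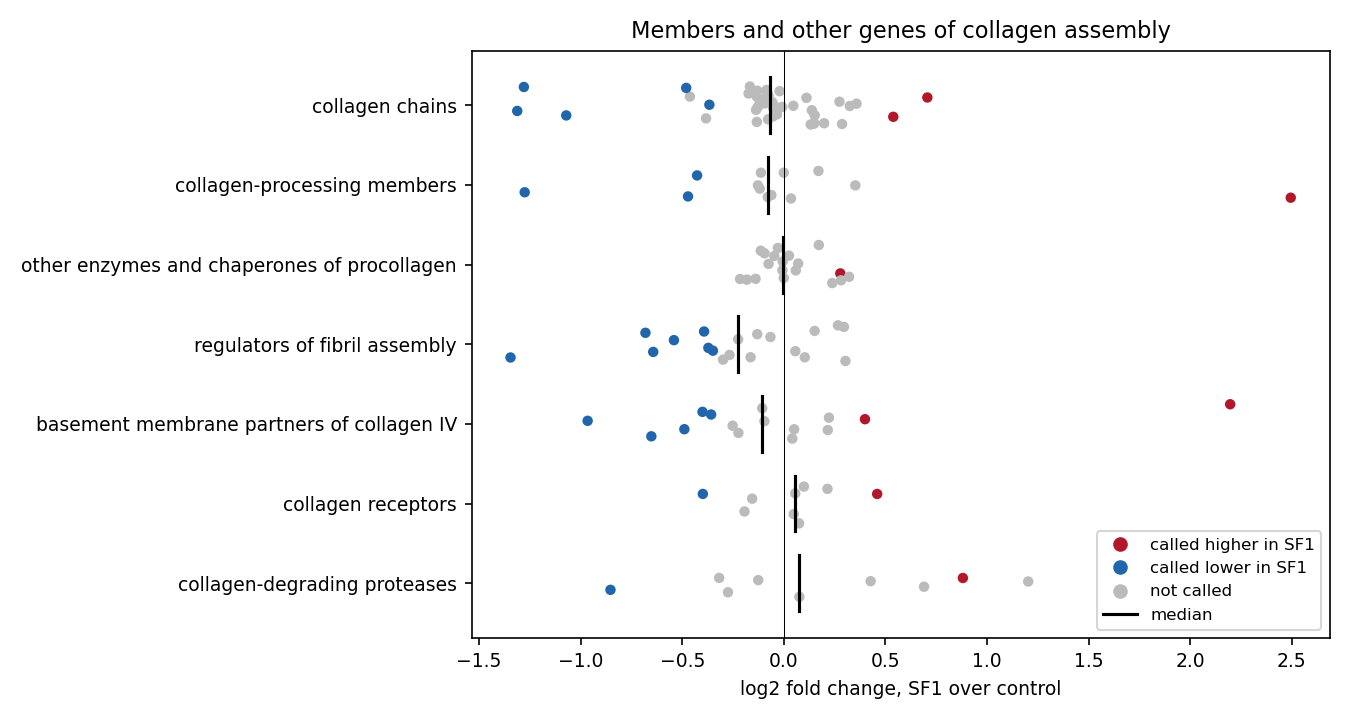
Log2 fold change, SF1 over control, of the collagen chains, the collagen-processing members and the 5 other lists, with 1 point for each gene and a black line for the median of each row. Fibril regulators lie furthest left by median, at -0.22, and the points beyond 2 are Pcolce and Lama1.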

How the data were processed

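RNA from uterine horn was hybridised to Affymetrix GeneChip Mouse Genome 430 2.0 arrays, 1 array for each of 6 pools of 2 uteri, per the labels. The deposited values are probe set intensity values on a linear scale, and the authors' background correction, normalization and summarization are not given in the sources used here. Unstated background handling could change the values of dim probe sets. Precision is set by having 3 arrays per group, whose SD had a median over probe sets of 0.10 in SF1 and 0.11 in control (log2 units). The labels describe separate pools. Each limma p-value sets the group difference against the spread between pools, estimated over both groups and moderated with that of all tested probe sets.

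Of 45101 probe sets, 64 control probe sets were set aside. Gene symbols came from the platform annotation, which gave 34945 of the 45037 tested probe sets 1 symbol, 932 several and 9160 none. Values were transformed as log2(intensity + 16), so fold changes of dim genes are understated, and limma 3.58.1 in R 4.3.3 (lmFit, then eBayes) compared the groups over all tested probe sets, with Benjamini-Hochberg adjustment over all of them. A call is an adjusted p under 0.05 in this model, the source of each adjusted p given. Tables and figures were made with Python 3.11.15, pandas 2.3.3 and matplotlib 3.10.9. The fit was tested on simulated data. The members and lists were chosen with earlier results of these data known.

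The rule for named genes took the called members, every member of a class of up to 6, the brightest of each class, both Pcolce genes, Pgr and Nr5a1, and from each other list up to 2 genes that rose and 2 that fell most. Genes named beyond it were chosen after their values were seen. Alternatives were quantile normalization, median centring, pseudocounts of 1 and 64, a filter to probe sets at or above the median log2 intensity, the replicate number as a block, trend and robust variance, array weights, stricter thresholds, averaging of the probe sets of a gene and leaving out each array.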

Additional observations from a re-analysis of the deposited data

How the results depend on the processing

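Of the 11 called members, Pcolce, Pcolce2, Col18a1, Col25a1, Col27a1, Col4a4 and Col23a1 kept their call in every fit that left out 1 array, and all 11 kept their direction in every alternative run, Col25a1 without the brightness filter, which removed it. Members called higher numbered 2 to 3 over all alternatives. Members called lower numbered 8 in the main setting and at most 9, but 5 at an adjusted p under 0.01, 4 with a fold of at least 1.5 in addition, 5 with the replicate block, and between 5 (without SF1 replicate 1 or control replicate 1) and 7 without 1 array. The block ended the calls of Col7a1, P4ha2 and Lox. The labels state no pairing of the arrays. Over all tested probe sets, same-numbered SF1 and control arrays had correlations of deviations from the group means of -0.06, -0.10 and -0.18. With deviations taken from means of 3 arrays, these values cannot decide whether the arrays were paired. Median centring moved the median of all genes by 0.05 (log2) and the share of calls that were higher to 63.0%, quantile normalization to 58.2%, against 51.0% in the deposited values. The median log2 fold change of the members lay between -0.11 and -0.03 without 1 array, and the difference in the beta-actin ratio between -0.38 and -0.27. Among members that were not called, the log2 fold change turned its sign in some fits, with adjusted p of at least 0.451 and with the cause not tested. With array weights it was -0.053 for Col1a1 and 0.012 for Loxl4. With the mean of the probe sets it was 0.0053 for Col4a1 and 0.041 for Loxl4. With quantile normalization it was 0.023 for Col10a1, 0.014 for Col13a1 and 0.048 for Loxl4. With median centring it was 0.018 for Col10a1, 0.0070 for Col13a1 and 0.051 for Loxl4. With a pseudocount of 1 it was 0.0015 for Loxl4. With single arrays left out it ran from -0.18 to 0.22 for Col1a1, -0.048 to 0.29 for Col5a1, -0.20 to 0.10 for Col5a2, -0.23 to 0.062 for Col4a1, -0.28 to 0.019 for Col4a6, -0.75 to 0.043 for Col6a5 and -0.012 to 0.40 for Col8a1, and from -0.081 to 0.026 for Col10a1, -0.19 to 0.094 for Col13a1, -0.091 to 0.61 for Col17a1, -0.028 to 0.10 for P4ha3, -0.30 to 0.094 for Loxl1 and -0.091 to 0.12 for Loxl4.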
